A study of Homo sapiens with 4 samples.

Results

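Transcripts of 10 genes of the YAP/TEAD arm of the Hippo pathway were followed in melanoma cells given octanoate, a saturated medium-chain fatty acid. The genes were listed by symbol for their known roles, with earlier results of these data known: the coactivators YAP1 and WWTR1, the DNA-binding factors TEAD1 and TEAD4, the target genes CYR61, CTGF and ANKRD1, and the pathway regulators AMOTL2, LATS2 and AJUBA. All 10 were found among the 56832 genes listed, CYR61 and CTGF under those older names of CCN1 and CCN2. The cells were A375, an established human melanoma line with a genotype labelled WT, grown in DMEM with 10% fetal bovine serum. They received either 1 mM octanoate or its vehicle, isopropanol, for 48 h. There were 2 libraries of total RNA per group. The labels do not say whether these came from separate cultures, so the p-values measure only spread between these libraries. In limma that spread is largely pooled across genes of like abundance.

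YAP and TAZ, the product of WWTR1, are transcriptional coactivators that cannot bind DNA alone and act mainly through the TEAD factors. In the Hippo kinase cascade MST acts through LATS, which phosphorylates YAP and TAZ. This keeps them in the cytoplasm and promotes their breakdown. Several of their targets, among them LATS2 and AMOTL2, feed back on the pathway. In melanoma, YAP and TAZ are known for links to invasion and drug resistance. The signal is set largely by phosphorylation and location of the proteins, which RNA levels do not measure.

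The transcripts of the pathway differed unevenly between the groups. TEAD1, CYR61, AMOTL2 and CTGF rose, by between 1.14-fold and 1.45-fold, while ANKRD1 fell to 0.76 of its vehicle level. YAP1, WWTR1, TEAD4, LATS2 and AJUBA did not pass the test. Of the 10 genes, 4 were thus called higher and 1 lower at an adjusted p under 0.05 (limma, Benjamini-Hochberg over 20250 genes), or 50% of them. Over all genes tested 29.9% were called, 16.2% higher and 13.7% lower, and among genes averaging 500 or more normalised counts, as all 10 did, 38.4% were called. The groups did not overlap for any of the 10 genes, nor for 63.1% of all tested genes. The median log2 difference of the 10 genes was 0.13, beside 0.01 over all tested genes and -0.02 over those averaging 500 or more counts. Without an intensity trend in the variance prior, limma called 0 of the 10 genes, with 4 at an unadjusted p under 0.05. It called 8 with equal column totals and 9 with the replicate number, which the labels do not explain, as a block. YAP1, TEAD4 and AJUBA passed in both of these fits. On recovered reads edgeR called 6 and DESeq2 called 4.

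**Figure D1:**
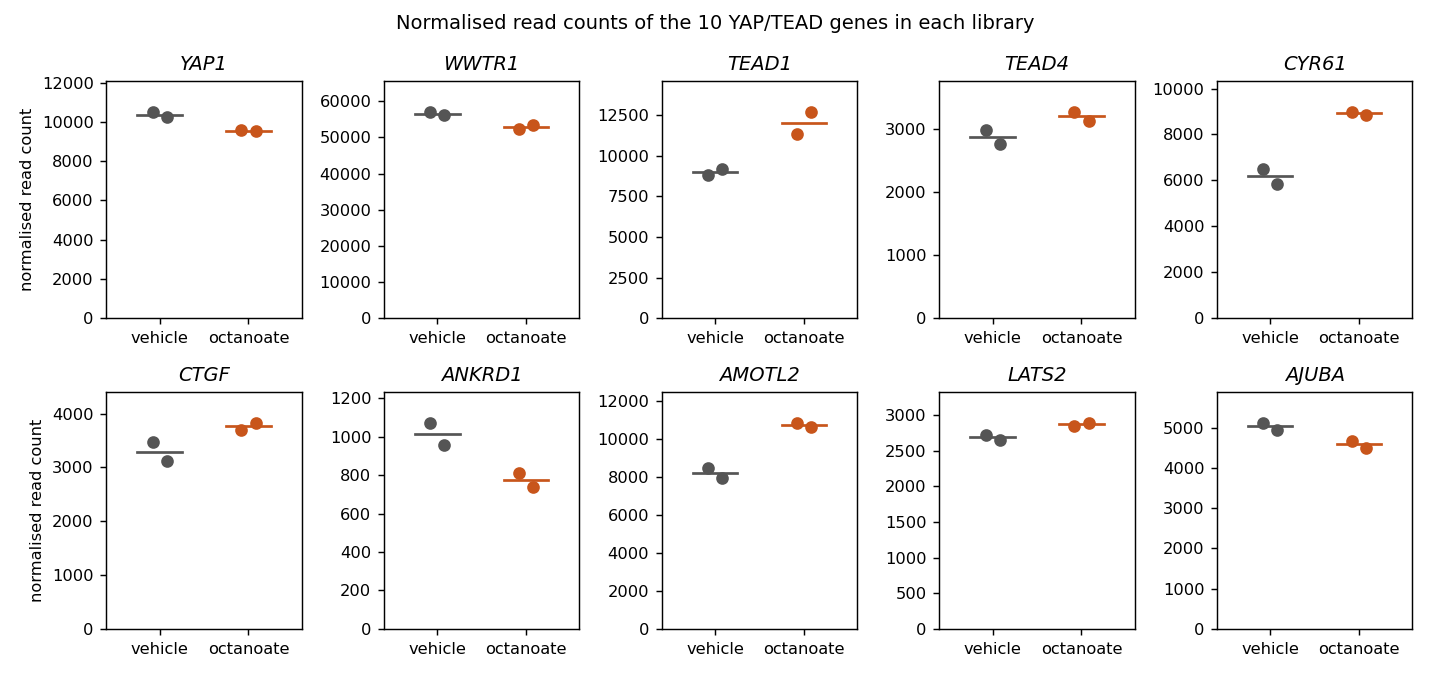
Normalised read counts (vertical axes, each from 0) of the 10 genes in the 2 vehicle and 2 octanoate libraries. Points are libraries and short lines are group means. The groups do not overlap for any of the 10 genes. CYR61, TEAD1, AMOTL2, CTGF, TEAD4 and LATS2 are higher in both octanoate libraries, and ANKRD1, YAP1, WWTR1 and AJUBA are lower.

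The libraries were deep and the replicates close. Recovered reads per library ran from 67785956 to 78005035. Within groups, chi-square over its degrees of freedom was 3.48 (vehicle) and 4.37 (octanoate), and across groups it was at least 30.3. Among the melanocyte lineage markers, SOX10 lay between 34072 and 41363 normalised counts and MITF between 2414 and 3533. The pigment genes TYR, TYRP1, DCT, MLANA and PMEL were all under 100. None of the 8 markers was at 0, and their summed counts were 49284 and 45003 in vehicle and 43603 and 38530 in octanoate. The 7 markers of leukocytes, endothelium, keratinocytes and epithelium summed to 1307 and 1127 in vehicle and 562 and 502 in octanoate. None of these was at 0 either. KRT14, a keratin, held most of the sum in vehicle (1110 and 942), and in octanoate KRT14 (266 and 218) and the endothelial marker PECAM1 (249.3 and 221) were of like size. The part of these markers in the results below was not tested. In bulk RNA, fewer cells with a transcript and less of it per cell cannot be told apart.

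The coactivators were examined first. YAP1 lies on chromosome 11 from 102110461 to 102233423 on the plus strand (GENCODE 29, GRCh38). Its normalised counts were 10502 and 10223 in vehicle and 9564 and 9536 in octanoate. Both octanoate libraries were lower, but the log2 difference of -0.12 (SE 0.06, adjusted p 0.117 by limma) did not pass the test. Its 95% interval ran from a fold of 0.85 to a fold of 1.00. WWTR1, on chromosome 3 from 149517235 to 149736714 on the minus strand, had counts of 57036 and 56149 in vehicle and 52200 and 53426 in octanoate. Its values also lay lower in both treated libraries, with a log2 difference of -0.10 (SE 0.06, adjusted p 0.218 by limma) and a 95% interval of the fold from 0.86 to 1.02. Exons of YAP1 and WWTR1 overlap those of AP000942.2 and WWTR1-AS1, which run in the opposite direction, and whether counting used strand is not given in the sources used here.

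Levels of different genes were compared as normalised counts per kilobase of annotated exon. On this length-scaled level WWTR1 was the higher of the coactivators, with 6727 ± 74.6 per kilobase in vehicle against 1646 ± 31.3 for YAP1 (SD, n = 2 each). The WWTR1 to YAP1 ratio of length-scaled levels was 4.06 and 4.11 with vehicle and 4.08 and 4.19 with octanoate. The ranges overlapped, so no shift in the balance of the coactivator transcripts was seen. WWTR1 had the highest length-scaled level of the 10 genes in vehicle. It was followed by CYR61 (2517 ± 192), YAP1, CTGF (1408 ± 106), AMOTL2 (1372 ± 62.4), TEAD4 (1264 ± 67.8), TEAD1 (875 ± 28.4), AJUBA (842 ± 21.3), ANKRD1 (514 ± 40.6) and LATS2 (482 ± 9.9), as length-scaled levels with SD and n = 2. The vehicle libraries overlapped for CTGF and AMOTL2, for TEAD1 and AJUBA, and for ANKRD1 and LATS2, so the order within these pairs is not resolved. With the longest annotated transcript as the length, CTGF ranked 6 instead of 4 and TEAD1 ranked 8 instead of 7, while the first 3 places stayed as they were.

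**Figure D2:**
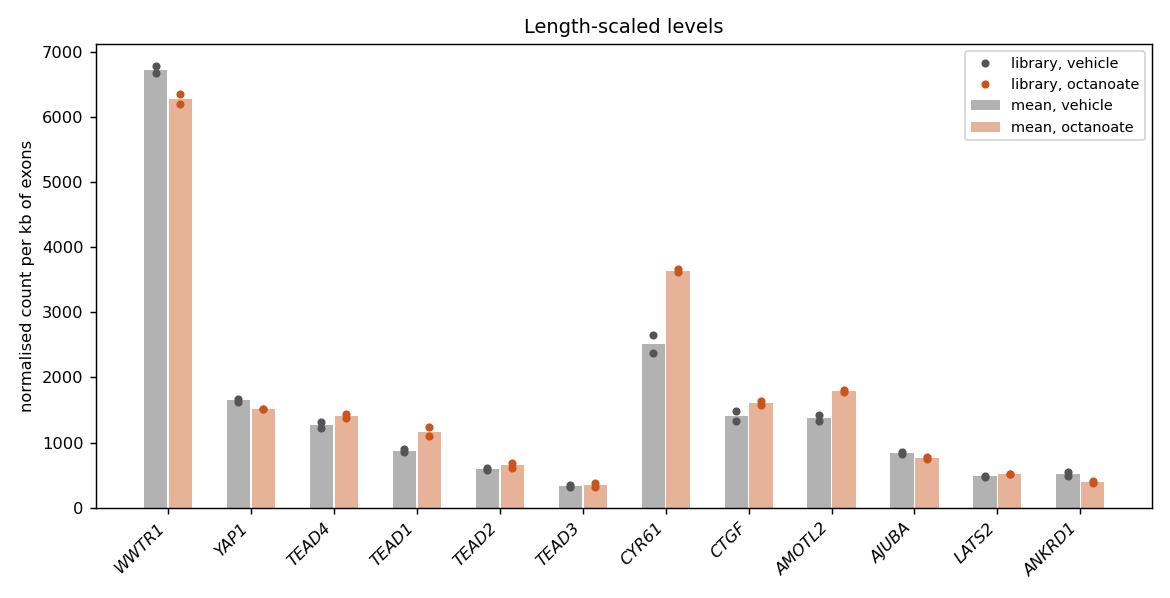
Normalised count per kilobase of annotated exon (vertical axis) of the 10 genes and of TEAD2 and TEAD3. Bars are group means and points are libraries; WWTR1 stands above all others, and TEAD4 is the highest of the 4 TEAD factors.

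Of the DNA-binding partners, TEAD1 changed the most. TEAD1, on chromosome 11 from 12674591 to 12944483 on the plus strand, had normalised counts of 8785 and 9198 in vehicle and 11340 and 12680 in octanoate. The octanoate libraries were both higher, and differed from each other more than the vehicle libraries did. The log2 difference was 0.42 (SE 0.06, adjusted p 1.05e-05 by limma), a fold of 1.33 with a 95% interval from 1.22 to 1.46. TEAD4, on chromosome 12 from 2959330 to 3040673 on the plus strand, had counts of 2981 and 2763 in vehicle and 3266 and 3123 in octanoate. Its log2 difference of 0.15 (SE 0.06, adjusted p 0.0707 by limma) did not pass, although the counts were higher in both treated libraries. On the recovered reads edgeR gave TEAD4 an adjusted p of 0.0263. The paralogs TEAD2 (log2 difference 0.13, adjusted p 0.160 by limma) and TEAD3 (0.04, adjusted p 0.777 by limma) did not pass either.

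The 4 TEAD factors recognise the same DNA element, so their transcripts were also set against each other. By length-scaled level, TEAD4 made up 41.2 ± 1.1% of the TEAD transcripts in vehicle, TEAD1 28.5 ± 1.7%, TEAD2 19.3 ± 0.08% and TEAD3 11 ± 0.47% (SD, n = 2). In octanoate the TEAD1 share was 30.6% and 34.8%, against 27.3% and 29.7% in vehicle. The TEAD4 share was 39.9% and 38.8% in octanoate, against 41.9% and 40.4% in vehicle. Neither pair of groups overlapped, but with 2 libraries per group the smallest two-sided p of an exact permutation test is 0.333, so the shift in shares was not tested.

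TEAD factors bind the sequence GGAATG, read as CATTCC on the other strand. RefSeq promoter sequences (GRCh38.p14) were matched for 7 of the 10 genes, with 10 windows of the 250 bases before a start. CYR61, TEAD1 and TEAD4 had no window and were not searched. The CTGF window held 3 copies, the ANKRD1 window 2, and 1 window each of YAP1, AMOTL2 and AJUBA held 1. Windows of WWTR1 and LATS2 held none. Over all 35116 RefSeq windows of that length, 11.9% held at least 1 copy, 0.940% at least 2 and 0.0826%, or 29 windows, at least 3. Of the 18 windows matched for a 22-gene YAP/TAZ target signature, which includes CTGF, ANKRD1 and AMOTL2, 8 held a copy. AP-1 elements are often found near TEAD sites. They were searched as TGANTCA, which reads the same on both strands but also admits middle bases other than the usual C or G. That looser pattern was in 6.57% of all windows and, among the 7 genes with a window, only in that of ANKRD1. The middle base of the ANKRD1 match is T, so it is not an AP-1 element of the usual form. The match did not overlap a TEAD element. Matches of this kind describe letters and do not show binding.

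The stretches below are shown because CTGF, ANKRD1 and AMOTL2 carry such elements near their starts and responded in different directions. They read 5′ to 3′ on the strand of the gene, with GGAATG or CATTCC in capitals. The CTGF promoter (chr6:131951374-131951622, minus strand) covers bases -250 to -2 before the start, with elements starting at -169, -104 and -95. The ANKRD1 stretches cover bases -250 to -190 (chr10:90921277-90921337, minus strand) and the 30 bases around the second element, which starts at -128 (chr10:90921198-90921227, minus strand) and lies in an exon of GENCODE 29. The AMOTL2 stretch (chr3:134374499-134374528, minus strand) covers the bases from -81 to -52 before the more downstream of its RefSeq starts, and all 30 of them also lie in an exon of GENCODE 29.
CTGF: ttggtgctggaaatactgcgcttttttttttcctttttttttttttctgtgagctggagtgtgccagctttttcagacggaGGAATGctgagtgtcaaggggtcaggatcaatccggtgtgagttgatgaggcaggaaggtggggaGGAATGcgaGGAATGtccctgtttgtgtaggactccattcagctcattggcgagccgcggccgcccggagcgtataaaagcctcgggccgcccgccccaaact
ANKRD1 first element: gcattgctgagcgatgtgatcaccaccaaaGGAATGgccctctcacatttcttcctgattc
ANKRD1 second element: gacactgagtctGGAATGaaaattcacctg
AMOTL2: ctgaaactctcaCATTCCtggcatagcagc

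The classical targets did not respond alike. CYR61, which encodes a secreted matricellular protein, lies on chromosome 1 from 85580761 to 85583962 on the plus strand. Its normalised counts were 6514 and 5847 in vehicle and 8980 and 8869 in octanoate, so that both treated libraries stood well above both controls. The log2 difference of 0.53 (SE 0.06, adjusted p 2.57e-07 by limma) is a fold of 1.45 with a 95% interval from 1.33 to 1.58. In absolute size it exceeded the differences of 94.0% of the tested genes with a mean of at least 500. CTGF, its close relative with the 3 TEAD elements shown above, lies on chromosome 6 from 131948176 to 131951373 on the minus strand. CTGF had counts of 3467 and 3118 in vehicle and 3689 and 3830 in octanoate. The vehicle libraries of CTGF were further apart than those of octanoate, and the log2 difference was 0.19 (SE 0.06, adjusted p 0.0250 by limma), a fold of 1.14 with a 95% interval from 1.04 to 1.25. The call for CTGF rested on single libraries: the log2 difference was 0.12 (adjusted p 0.295 by limma) without vehicle 2 and 0.17 (adjusted p 0.147 by limma) without octanoate 2. Over all 14 other settings the CTGF adjusted p ran from 0.000484 to 0.295. An exon of AL133346.1 lies opposite CTGF, so its count is uncertain where strand was not used.

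The CYR61 to CTGF ratio of length-scaled levels was 1.79 in each vehicle library and 2.32 and 2.21 in the octanoate libraries. The groups of that ratio did not overlap, and the gap between them was larger than the spread within either. As for the TEAD shares, the smallest exact p is 0.333.

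ANKRD1 went the other way. It encodes a nuclear ankyrin repeat cofactor, also regulated in muscle and wound repair, and lies on chromosome 10 from 90912096 to 90921276 on the minus strand. Its counts were 1074 and 960 in vehicle and 810 and 738 in octanoate, the lowest of the 10 genes. Both treated libraries were lower than both controls. The log2 difference of ANKRD1 was -0.39 (SE 0.08, adjusted p 0.000867 by limma), a fold of 0.76 with a 95% interval from 0.68 to 0.86. Its replicates differed by 7.9% and 6.6% (coefficient of variation), above the counting error of 3.8% that its fewest reads (681) imply.

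**Figure D3:**
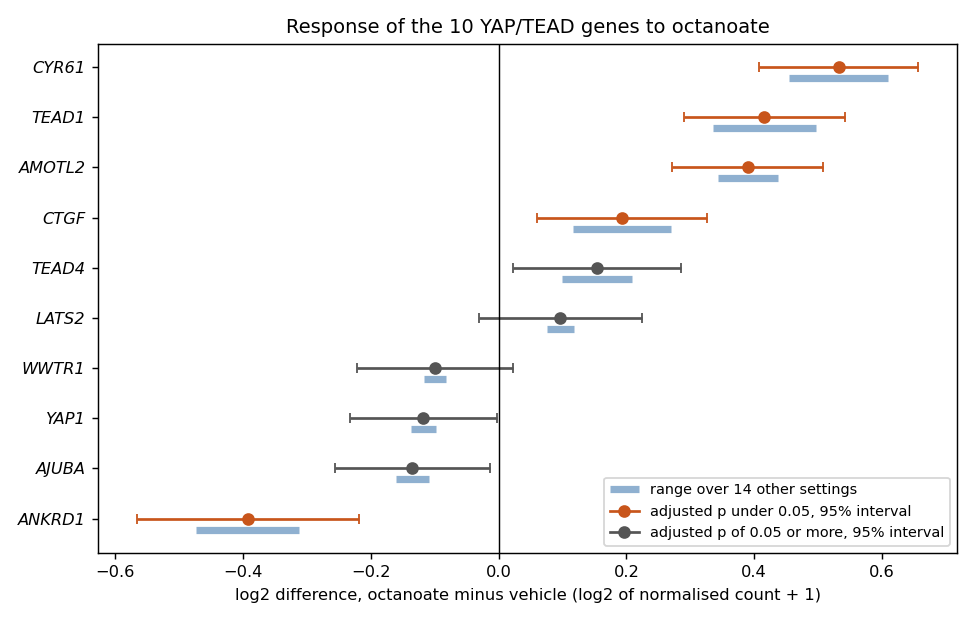
Log2 difference between octanoate and vehicle (horizontal axis, log2 of normalised count + 1) of the 10 genes, with 95% intervals from limma and, below each, the range over the 14 other settings. CYR61, TEAD1, AMOTL2 and CTGF are higher and ANKRD1 lower, and no range crosses 0. Most of the settings could not reverse a direction.

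The regulators among the 10 genes were mixed as well. AMOTL2, an angiomotin-family scaffold that holds YAP at cell junctions and is itself a target, lies on chromosome 3 from 134355874 to 134375479 on the minus strand. Its counts were 8473 and 7944 in vehicle and 10856 and 10652 in octanoate, higher in both treated libraries by several times the spread between replicates. The log2 difference of AMOTL2 was 0.39 (SE 0.06, adjusted p 1.05e-05 by limma), a fold of 1.31 with a 95% interval from 1.21 to 1.42. AMOTL2 overlaps the pseudogene RPL39P5 on the same strand and shares 196 bases with it at 99.0% identity, so part of its count may be ambiguous.

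LATS2, a kinase that phosphorylates YAP and TAZ and is also induced by them, lies on chromosome 13 from 20973032 to 21061547 on the minus strand. Its counts were 2727 and 2649 in vehicle and 2853 and 2896 in octanoate. The groups of LATS2 did not overlap, but the log2 difference of 0.10 (SE 0.06, adjusted p 0.257 by limma) did not pass, and the 95% interval of the fold was 0.98 to 1.17. AJUBA, a LIM protein that binds and inhibits LATS, lies on chromosome 14 from 22971174 to 22982642 on the minus strand. Its counts were 5127 and 4947 in vehicle and 4670 and 4504 in octanoate, a log2 difference of -0.13 (SE 0.06, adjusted p 0.0872 by limma). That fold had a 95% interval from 0.84 to 0.99, and exons of AL132780.3 overlap AJUBA on the same strand.

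The authors' deposited table gave the same picture for the 10 genes, with 4 higher and 1 lower at an adjusted p under 0.05. Over all 33533 genes it lists, many of them low, 12.9% were called. All 10 genes average 500 or more counts, and among such genes the limma fit called 38.4%. In the authors' deposited table the log2 fold change was 0.53 for CYR61 (adjusted p 1.09e-13), 0.42 for TEAD1 (adjusted p 1.00e-08), 0.39 for AMOTL2 (adjusted p 2.22e-09) and -0.39 for ANKRD1 (adjusted p 0.00451). CTGF was close to the threshold in the authors' deposited table, with a log2 fold change of 0.19 and an adjusted p of 0.0477.

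**Figure D4:**
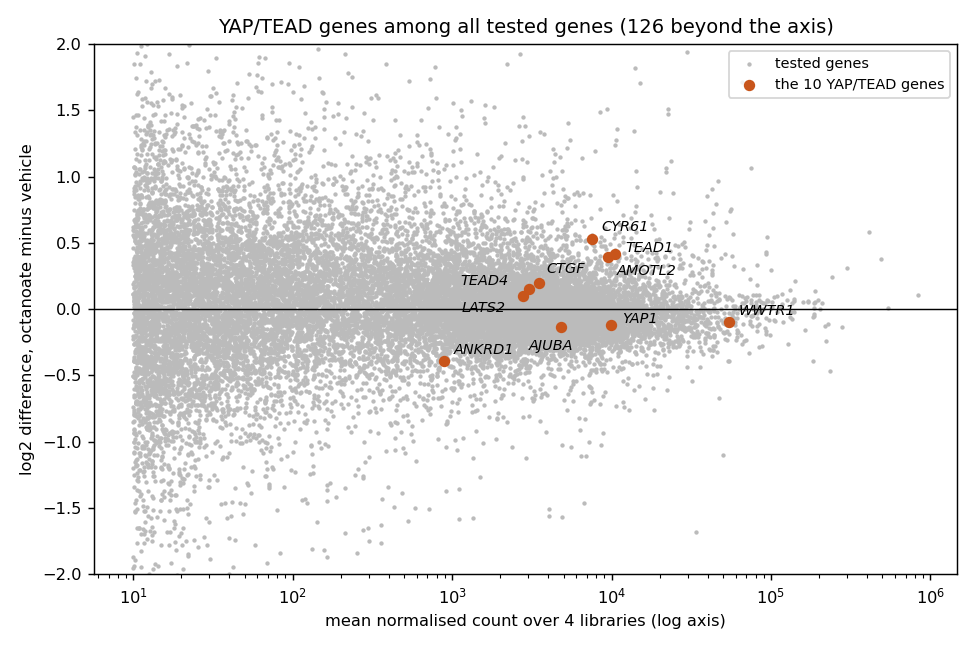
Log2 difference between octanoate and vehicle (vertical axis) against the mean normalised count (horizontal log axis) for the tested genes (grey) and the 10 genes (orange); 126 genes lie beyond the vertical axis. The 10 genes have means above 500 and differences between -0.39 and 0.53, within the range of other genes of like abundance.

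The remaining Hippo regulators and TEAD cofactors were called in both directions. A list of 33 genes held 27 kinases, adaptors, scaffolds and STRIPAK phosphatase subunits and 6 TEAD or VGLL cofactors. Of the 32 tested, 4 were called higher and 4 lower, 25% in all, with a median log2 difference of 0.04. That share is near the 29.9% called over all tested genes. Among genes averaging 500 or more counts, which WTIP, VGLL2 and VGLL3 do not, 38.4% were called. WWC1, or KIBRA, a scaffold that promotes LATS activation, had counts of 485 and 437 in vehicle and 712 and 669 in octanoate, a log2 difference of 0.58 (SE 0.09, adjusted p 2.94e-05 by limma). Its relative WWC3 had a log2 difference of 0.25 (adjusted p 0.00369 by limma), and MOB1B, an activating partner of LATS, one of 0.23 (adjusted p 0.0119 by limma). MOB1B overlaps DCK on the same strand and shares 199 bases with it at 100% identity, so part of its count may be ambiguous. MOB1B did not pass without vehicle 1 (0.16, adjusted p 0.177 by limma) or without octanoate 2 (0.14, adjusted p 0.237 by limma). The fourth gene that rose, STK3, encodes the Hippo kinase MST2 and had a log2 difference of 0.20 (adjusted p 0.0144 by limma); it was picked after its value was seen.

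FRMD6, a FERM-domain protein placed upstream of the kinases, fell from 6682 and 6641 to 4871 and 4931 counts, a log2 difference of -0.44 (SE 0.06, adjusted p 1.65e-06 by limma). TAOK2, a kinase of the family that activates MST, had a log2 difference of -0.26 (adjusted p 0.00125 by limma). AMOT, the angiomotin that gave the family of AMOTL2 its name, had one of -0.23 (adjusted p 0.00446 by limma). AMOT thus fell where AMOTL2 rose, while AMOTL1 had a log2 difference of 0.01 (adjusted p 0.904 by limma). VGLL4, which competes with YAP for TEAD, had a log2 difference of -0.25 (adjusted p 0.00742 by limma). It did not pass without vehicle 1 (-0.20, adjusted p 0.108 by limma) or without octanoate 2 (-0.20, adjusted p 0.101 by limma), and exons of ATG7 lie on its opposite strand. Leaving out either of these libraries brought the calls in this list from 8 to 5. LATS1, the other LATS kinase, was close to level at a log2 difference of 0.00 (adjusted p 0.976 by limma), with a 95% interval from -0.14 to 0.14. NF2, the merlin scaffold that acts on LATS, had a log2 difference of 0.13 (adjusted p 0.101 by limma). SAV1, the adaptor of the MST kinases, had one of -0.12 (adjusted p 0.123 by limma). AMOTL1, LATS1, NF2 and SAV1 were named after their values were seen.

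The wider set of YAP/TAZ targets split by direction too. Besides the 5 members CYR61, CTGF, ANKRD1, AMOTL2 and LATS2, the 22-gene signature known from tumour data has 17 genes. Of these 17, 7 were called higher and 6 lower, 76.5% in all, beside 29.9% over all tested genes and 38.4% among those averaging 500 or more counts. Their median log2 difference was -0.03. Over the whole signature 10 genes rose and 7 fell. NT5E, which encodes the ectonucleotidase CD73, had the largest rise, from 6277 and 6178 to 14322 and 15002 counts, a log2 difference of 1.23 (SE 0.06, adjusted p 2.67e-14 by limma). GADD45A, a growth arrest gene also induced by stress, rose from 2715 and 2634 to 4621 and 4578 counts, a log2 difference of 0.78 (SE 0.06, adjusted p 3.53e-10 by limma). CRIM1, a transmembrane protein that binds growth factors of the BMP family, had a log2 difference of 0.48 (SE 0.06, adjusted p 3.20e-07 by limma). Exons of AC007378.1 overlap CRIM1 on the opposite strand.

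In the opposite direction, TGFB2, the growth factor TGF-beta 2, fell from 167 and 182 to 66.4 and 61.8 counts. Its log2 difference was -1.43 (SE 0.17, adjusted p 3.93e-07 by limma), and 1371 bases of it are shared with the overlapping TGFB2-OT1. F3, or tissue factor, had a log2 difference of -0.45 (adjusted p 0.000942 by limma), and RBMS3, an RNA-binding protein, one of -0.38 (adjusted p 0.000414 by limma), with 836 bases shared with AC098650.1. The other genes that rose were FOXF2, AXL, DOCK5 and ASAP1, with log2 differences from 0.20 to 0.47, and the others that fell were CCDC80, PTPN14 and MYOF, from -0.27 to -0.17. IGFBP3, FJX1, ARHGEF17 and NUAK2 did not pass. These genes were named after their values were seen.

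**Figure D5:**
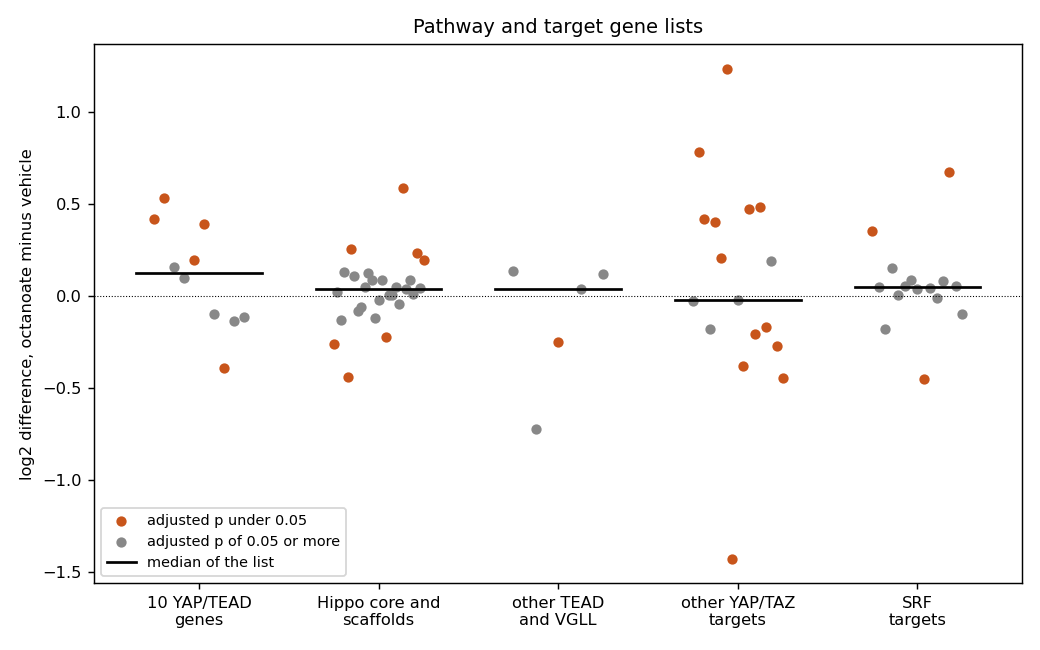
Log2 difference between octanoate and vehicle (vertical axis) for each tested gene of 5 lists, with genes at an adjusted p under 0.05 in orange and the list median as a black bar. The other YAP/TAZ targets spread widely in both directions around a median of -0.03, while most Hippo core and SRF genes lie close to 0.

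CYR61, CTGF and ANKRD1 are also known targets of SRF, which works with the actin-regulated MRTF cofactors, so cytoskeletal SRF targets were examined beside them. Of 15 such genes 2 were called higher and 1 lower, 20.0% in all, with a median log2 difference of 0.05. Over all tested genes 29.9% were called. Among those averaging 500 or more counts, which TAGLN, ACTA2 and CNN1 do not, 38.4% were called. The list is short, and with the replicate number as a block 5 of its 15 genes were called. FHL2, a LIM-domain cofactor, rose from 2255 and 2043 to 3503 and 3353 counts, a log2 difference of 0.67 (SE 0.07, adjusted p 2.21e-08 by limma). Exons of AC108058.1 overlap FHL2 on the opposite strand. MYL9, a myosin light chain, had a log2 difference of 0.35 (adjusted p 0.00275 by limma), and 0.24 (adjusted p 0.0937 by limma) without vehicle 2. TPM1, a tropomyosin, fell from 9366 and 9025 to 6742 and 6695 counts, a log2 difference of -0.45 (SE 0.06, adjusted p 1.02e-06 by limma), with TPM1-AS on its opposite strand. SRF itself had a log2 difference of 0.00 (adjusted p 0.989 by limma). The actin genes ACTB and ACTG1, the filamin FLNA and the vinculin VCL had log2 differences between 0.04 and 0.05 and did not pass. Among the others that did not pass, log2 differences reached -0.18 (TAGLN) and 0.15 (ZYX). SRF and these genes that did not pass were named after their values were seen.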

How the data were processed

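RNA-seq values of A375 cells were used from 2 vehicle and 2 octanoate libraries. The submitters' processing notes name bcl2fastq 2.17, Trim Galore, STAR 2.4, Picard, HTSeq 0.9.1, DESeq2 and the build hg38; the annotation, the strand setting and filters are not given in the sources used here. The authors deposited a signal per gene that is, per the file's name, a count normalised by DESeq2. Dividing each library's values by their smallest step recovered whole reads (100% of values within 0.001). The authors' deposited comparison holds a log2 fold change, a test score and p-values with adjusted p-values.

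Log2(normalised count + 1) was fitted across all genes with a mean of at least 10 by limma 3.58.1 (R 4.3.3), with an intensity trend, treatment as the only term, two-sided tests and Benjamini-Hochberg adjustment. Fold changes are on that scale and understate changes of low genes. Positions, exon lengths and overlaps came from GENCODE 29, and shared transcript sequence (at least 100 bases at 95% identity) from blastn 2.17.0. Alternatives, including edgeR 4.0.16 and DESeq2 1.42.0 on recovered reads, are in the closing section. The fits were also tested on simulated data with a spread common to all genes, and the outcome is not given here. The genes, lists and tests were chosen with earlier results of these data known. Genes named in full were the 10 members and, per list, at most 3 called genes with the smallest p in each direction.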

Additional observations from a re-analysis of the deposited data

How the results depend on the processing

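The direction of each of the 10 genes and of the 16 other genes named by rule was the same in all 14 other settings of the fit. Most of these settings could not reverse it. The filter, trend and block settings leave the difference unchanged. The groups of these genes did not overlap, so leaving out 1 library could not reverse it either. Counts of calls moved more. Under the main settings 6048 genes, 5 of the 10 members (4 higher, 1 lower), 8 Hippo regulators, 13 other targets and 3 SRF targets were called. With every gene that had a read, these were 2595 genes, 3 members (0 lower in limma, with 8 members at an unadjusted p under 0.05), 5 regulators and 7 targets. Without an intensity trend they were 1625 genes, 0 members (0 higher, 0 lower), 2 regulators and 5 targets, with adjusted p from 0.0519 (CYR61) to 0.227 (CTGF) for the 5 members. In these fits the prior degrees of freedom were 3.45 and 1.57, against 21.2 in the main fit. In the fits that left out 1 octanoate library they were infinite, so the spread there was wholly pooled across genes. With equal column totals 8 members were called, 3 of them lower, as YAP1, TEAD4 and AJUBA passed. Leaving out 1 library gave between 5 and 8 regulators. On recovered reads edgeR called 6481 genes and DESeq2 4180.

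The replicate numbers are not explained in the labels, and the deviations of same-numbered libraries correlated across genes at r = 0.126 over all tested genes and r = 0.377 over those averaging 500 or more counts, as the 10 members do. With the number as a replicate block, 9 members (4 lower), 14 regulators and 5 SRF targets were called, and YAP1, WWTR1, TEAD4 and AJUBA passed. The prior degrees of freedom of that fit were 64.6.

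With the longest annotated transcript as the length, the WWTR1 to YAP1 ratio was 5.86 in vehicle and 5.94 in octanoate (4.09 and 4.14 with all exons), and that of CYR61 to CTGF 1.92 and 2.43 (1.79 and 2.26). The TEAD2 share was 18.9% in vehicle, the TEAD3 share 9.03% and 7.98%, and the TEAD4 share 44.4% and 42.4%. Depth limits these genes little, with counting errors of at most 3.8%; 2 libraries per group limit them more.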

Other observations

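Of the 7 melanocyte lineage markers tested, limma called MITF and S100B lower and PMEL higher, and the other 4 did not pass. AXL, a receptor tyrosine kinase and YAP/TAZ target, was higher. MITF had normalised counts of 3533 and 3330 in vehicle and 2414 and 2511 in octanoate, a log2 difference of -0.48 (SE 0.06, adjusted p 2.33e-06 by limma). S100B went from 4234 and 3741 to 1917 and 1746, a log2 difference of -1.12 (SE 0.07, adjusted p 9.15e-12 by limma). PMEL, a pigment granule protein, had low counts of 65.8 and 65.9 in vehicle and 98.2 and 95.4 in octanoate, a log2 difference of 0.55 (SE 0.19, adjusted p 0.0289 by limma). In the authors' deposited table PMEL did not pass (log2 fold change 0.56, adjusted p 0.224). MITF (adjusted p 3.80e-09) and S100B (adjusted p 5.75e-37) did pass there. SOX10, a factor of the same lineage, had a log2 difference of -0.12 (adjusted p 0.209 by limma) and overlapping groups. AXL had counts of 23437 and 22061 in vehicle and 30450 and 30298 in octanoate, a log2 difference of 0.42 (SE 0.06, adjusted p 4.33e-06 by limma). KRT14, a keratin of basal epithelium, fell from 1110 and 942 to 266 and 218 counts, and PECAM1, an adhesion molecule of endothelium, rose from 121 and 122 to 249.3 and 221. These genes were named after their values were seen, and their relation to the YAP/TEAD genes was not tested.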
